A study of Mus musculus with 6 samples.

Results

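The genes described here encode the ubiquitin-like protein Isg15 and the enzymes that attach and remove it. They also encode some antiviral members of the PARP (ADP-ribosyltransferase) family and the ligase Dtx3l, a partner of Parp9. The genes are *Isg15*, *Uba7*, *Ube2l6*, *Herc6*, *Usp18*, *Parp9*, *Dtx3l*, *Parp14*, *Parp10* and *Parp12*. These 10 names were grouped by function, and earlier results of these data were known when they were chosen. Each gene was read from a probe set that the platform annotation pairs with that symbol alone, and 9 of the 10 had exactly 1, out of 19938 genes that could be read in this way. The only probe set for *Isg15* is also paired with the pseudogene *Gm9706*, so it is given separately and is not counted among the 9.

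Bone marrow-derived macrophages (BMMs) were grown with M-CSF, the macrophage growth factor, from the tibial marrow of 9-week-old mice. For 24 h before RNA extraction, 3 cultures received 100 ng/ml rGDF11, a recombinant ligand of the TGF-β superfamily, and 3 received vehicle. All 6 had M-CSF (100 ng/ml) in the medium throughout. During the 24 h of treatment all 6 also had RANKL (50 ng/ml), the cytokine that drives osteoclast formation, so neither group shows BMMs without RANKL. Each culture was read on 1 Affymetrix Mouse Gene 1.0 ST array, and values are given as log2 expression after the robust multichip average (RMA). The labels call them biological replicates without saying whether they came from separate mice, and the strain and sex of the donors are not in the labels, so p-values measure only the spread between these samples.

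Isg15 is coupled to other proteins by a chain that parallels ubiquitin conjugation. Uba7 activates it (E1), Ube2l6 carries it (E2), Herc6 is its main ligase (E3) in the mouse, and Usp18 takes it off again and separately restrains signalling from the type I interferon receptor. Parp10, Parp12 and Parp14 attach single ADP-ribose units to proteins, and Parp9 acts together with the ubiquitin ligase Dtx3l. Interferons induce these genes in macrophages, mainly through a promoter sequence called the interferon-stimulated response element.

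A promoter window, 250 bases before to 50 after the annotated start, was held by the RefSeq table (GRCm38.p6) for 6 of the 10 genes, namely *Isg15*, *Uba7*, *Ube2l6*, *Herc6*, *Parp12* and *Dtx3l*. The core of the response element was taken as GAAA followed by any 2 bases and GAAA again. Searched on both strands, it occurred in 1 of the 6 windows, that of *Isg15*, beside 3.44% of all 32851 windows of the same length. The gamma-activated site TTCNNNGAA, found in promoters that respond to interferon-γ, occurred in 0 of the 6 windows and in 8.3% of all windows. The 250 bases before the start are printed for *Isg15* (chr4:156200819-156201068, minus strand) and for *Ube2l6* (chr2:84798578-84798827, plus strand), to set a promoter with the core beside one without it. Capitals mark 3 overlapping matches to the core in *Isg15*, which cover bases 78 to 57 before the start.
Isg15: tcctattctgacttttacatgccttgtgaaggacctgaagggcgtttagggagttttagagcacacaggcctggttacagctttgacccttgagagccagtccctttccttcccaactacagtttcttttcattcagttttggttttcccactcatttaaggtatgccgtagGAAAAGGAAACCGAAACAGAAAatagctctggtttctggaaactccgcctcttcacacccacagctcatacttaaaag
Ube2l6: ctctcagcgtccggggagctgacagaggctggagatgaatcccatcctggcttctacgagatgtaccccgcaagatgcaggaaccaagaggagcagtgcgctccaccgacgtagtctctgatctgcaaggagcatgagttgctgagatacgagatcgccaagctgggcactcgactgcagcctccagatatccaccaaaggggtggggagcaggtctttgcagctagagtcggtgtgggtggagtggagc
A match is a feature of the sequence only, and a window without a match says nothing about which factors act there.

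With rGDF11, expression of all 9 genes read alone fell, by 1.53-fold (*Uba7*) to 5.41-fold (*Usp18*). The median log2 fold change was -1.34, beside 0.02 over all 23410 probe sets tested. All 9 were lower at an adjusted p under 0.05 (limma, Benjamini-Hochberg), beside 8.64% of probe sets. None was higher (0 in limma, 0 at an unadjusted p under 0.05 and 0 in the methods' t-test), beside 7.31%. At the threshold of the methods, a fold change of 1.5 with an unadjusted p under 0.01, 9 of 9 were lower, beside 2.96%, and 0 were higher, beside 2.06%. At a fold change of 2 the count of lower genes was 7, beside 1.18%, without *Uba7* and *Parp10*. In all 9 the highest rGDF11 array stood below the lowest vehicle array, an ordering found in 16.5% of probe sets. The two-sided exact permutation test then gives p = 0.1 for each gene, the smallest that 3 arrays against 3 allow. Because earlier results of these data were known when the genes were chosen, the shares beside these counts are a description only. In bulk RNA, fewer cells expressing a gene and less of its RNA per cell cannot be told apart.

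**Figure D1:**
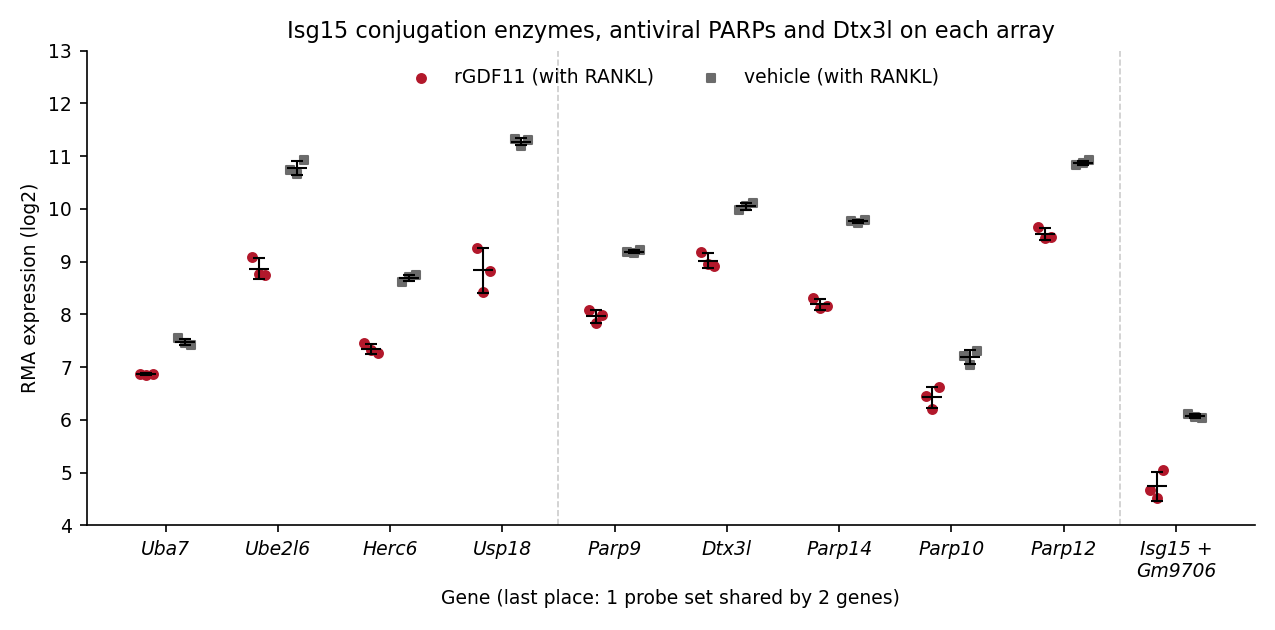
RMA expression (log2, vertical axis) of the 9 genes and of the probe set shared by *Isg15* and *Gm9706* (horizontal axis) in BMMs with rGDF11 (red circles) and with vehicle (grey squares). Each point is 1 array, with bars for mean and SD (n = 3); the groups are separate at every place, widest at *Usp18*, with means of 8.84 with rGDF11 and 11.28 with vehicle.

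The measured falls of the Isg15 conjugation enzymes differed in size. *Uba7*, with the smallest, also had a lower vehicle mean (7.47) than *Ube2l6* (10.77) and *Herc6* (8.69), and RMA compresses dim probe sets. *Uba7* (probe set 10588786), the E1 enzyme, read 6.87, 6.84 and 6.88 on the log2 scale with rGDF11, against 7.54, 7.45 and 7.42 with vehicle. The rGDF11 arrays lay close together and below all vehicle arrays, with a log2 fold change of -0.61 (SE 0.06; limma, adjusted p = 0.00046). *Ube2l6* (probe set 10473356), the E2 enzyme, read 9.09, 8.76 and 8.74 with rGDF11, against 10.74, 10.67 and 10.92 with vehicle. Its groups were also apart, and with a log2 fold change of -1.91 (SE 0.11) it was left at 26.6% of its vehicle level on the linear scale (limma, adjusted p = 3.93e-05). *Herc6* (probe set 10538590), the E3 ligase, read 7.46, 7.32 and 7.27 with rGDF11, against 8.62, 8.71 and 8.74 with vehicle. This was a log2 fold change of -1.34 (SE 0.07), or 2.54-fold lower, again with no overlap (limma, adjusted p = 2.95e-05).

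*Usp18* (probe set 10541307), the protease that reverses the modification, had the largest fall of the 9. It read 9.27, 8.42 and 8.83 with rGDF11, against 11.33, 11.20 and 11.30 with vehicle. The rGDF11 arrays spread widely (SD 0.42, n = 3) and the vehicle arrays little (SD 0.07, n = 3), and the first rGDF11 array was the highest of its group. The log2 fold change was -2.44 (SE 0.19), which left 18.5% of the vehicle level (limma, adjusted p = 0.000114), and by size the fall ranked 19 among all 23410 probe sets.

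The probe set shared by *Isg15*, the modifier itself, and *Gm9706* (probe set 10451287) read 4.66, 4.51 and 5.05 with rGDF11, against 6.11, 6.06 and 6.04 with vehicle. The groups did not overlap, and the third rGDF11 array was the highest of its group. The log2 fold change was -1.33 (SE 0.13), or 2.51-fold lower (limma, adjusted p = 0.000375). Its mean was below the lowest array median, 6.11, in both groups, and the contribution of each of the paired genes to the signal cannot be told apart.

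The difference between a pair of genes within an array shows whether their measured log2 values changed by the same amount, without setting their levels against each other. Because dim probe sets are compressed, unequal measured changes need not be unequal changes in RNA. Relative to vehicle, the fall of *Ube2l6* exceeded that of *Uba7* by 1.30 on the log2 scale, and the difference between *Ube2l6* and *Herc6* changed by -0.57. In both pairs the 3 rGDF11 arrays lay apart from the 3 vehicle arrays. Each gave p = 0.1, the smallest possible in the exact permutation test (two-sided), and 0.1 after adjustment over the 12 pairs compared. The shared *Isg15* and *Gm9706* probe set was also paired with *Usp18* and *Uba7*. Its rGDF11 values were near those of the interferon genes, whose array means with rGDF11 were 4.78 to 4.88, so the size of its fall is uncertain and no order of changes was read from these pairs.

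Among the PARP genes, *Parp14* had the largest fall. *Parp14* (probe set 10439249), a macrodomain protein that transfers single ADP-ribose units, read 8.31, 8.12 and 8.15 with rGDF11, against 9.77, 9.74 and 9.80 with vehicle. Both groups were tight, and the log2 fold change was -1.57 (SE 0.07), or 33.6% of the vehicle level (limma, adjusted p = 1.44e-05). *Parp12* (probe set 10544133), a zinc-finger member of the family that restricts viruses, read 9.65, 9.45 and 9.47 with rGDF11, against 10.83, 10.87 and 10.92 with vehicle. It was 2.54-fold lower, with a log2 fold change of -1.35 (SE 0.08) and no overlap (limma, adjusted p = 3.12e-05). *Parp10* (probe set 10429843), which modifies proteins with single ADP-ribose units, read 6.46, 6.21 and 6.61 with rGDF11, against 7.21, 7.05 and 7.31 with vehicle. Its arrays were spread more than those of *Parp14* in both groups, and the log2 fold change was -0.77 (SE 0.12; limma, adjusted p = 0.0035). The difference between *Parp12* and *Parp10* changed by -0.58 within arrays, with no overlap between the groups.

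*Parp9* and *Dtx3l* encode partner proteins and are neighbours on chromosome 16. *Parp9* (probe set 10435457), a macrodomain protein, read 8.08, 7.83 and 7.98 with rGDF11, against 9.18, 9.16 and 9.23 with vehicle. *Dtx3l* (probe set 10439268), the ubiquitin ligase, read 9.19, 8.95 and 8.92 with rGDF11, against 9.98, 10.05 and 10.11 with vehicle. For both genes all rGDF11 arrays were below all vehicle arrays. The log2 fold change was -1.23 (SE 0.08) for *Parp9* (limma, adjusted p = 5.05e-05) and -1.03 (SE 0.09) for *Dtx3l* (limma, adjusted p = 0.000191). Within arrays the fall of *Parp9* exceeded that of *Dtx3l* by 0.20 and that of *Parp14* exceeded that of *Parp9* by 0.35, each without overlap between the groups.

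Ordered by the size of the fall, the genes ran *Usp18*, *Ube2l6*, *Parp14*, *Parp12*, *Herc6*, *Parp9*, *Dtx3l*, *Parp10* and *Uba7*. Neighbours in this order whose within-array differences overlapped between the groups were *Parp12* and *Herc6* (difference of changes -0.004), *Herc6* and *Parp9* (-0.12), and *Parp10* and *Uba7* (-0.16). The other neighbours were separate, with differences of changes from -0.53 for *Usp18* and *Ube2l6* to -0.20 for *Parp9* and *Dtx3l*. For *Dtx3l* and *Parp10* the difference of changes was -0.26, with a wide spread over the 3 rGDF11 arrays (SD 0.25). The order and these separations come from the same 6 arrays, so they describe the order and do not test it. *Parp10* and *Uba7*, last in the order, also had the lowest vehicle means of the 9 genes, at 7.19 and 7.47, and RMA compresses dim probe sets. The arrays also differed within the rGDF11 group. Averaged over the 9 genes, rGDF11 arrays 1, 2 and 3 lay at -1.21, -1.49 and -1.38 relative to the vehicle mean, and the vehicle arrays at -0.01, -0.04 and 0.05. The first rGDF11 array was the highest of its group for 7 of the 9 genes and the second the lowest for 6, so the genes tended to be high or low on the same arrays.

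*Parp14*, *Dtx3l* and *Parp9* lie next to each other, and the annotated spans of *Dtx3l* and *Parp9* overlap. The array reads each through a probe set of its own. Of the 4 nearest protein-coding genes on each side with a probe set of their own, 1 of 8 fell, beside 8.64% of all probe sets. The neighbour that fell was *Slc49a4*, a lysosomal membrane transporter gene, at -0.61 on the log2 scale (adjusted p = 0.000717 in limma). Between it and *Parp14* lies *Hspbap1*, at -0.03 (adjusted p = 0.876 in limma). Beyond *Slc49a4*, *Sema5b* had 0.15 (adjusted p = 0.539) and *Pdia5* -0.03 (adjusted p = 0.845) in limma. On the side of *Parp9*, *Kpna1*, an importin gene, was at 0.21 (adjusted p = 0.0886 in limma). The next genes *Wdr5b*, *Fam162a* and *Ccdc58* had -0.07, 0.20 and 0.23, and none passed the test.

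**Figure D2:**
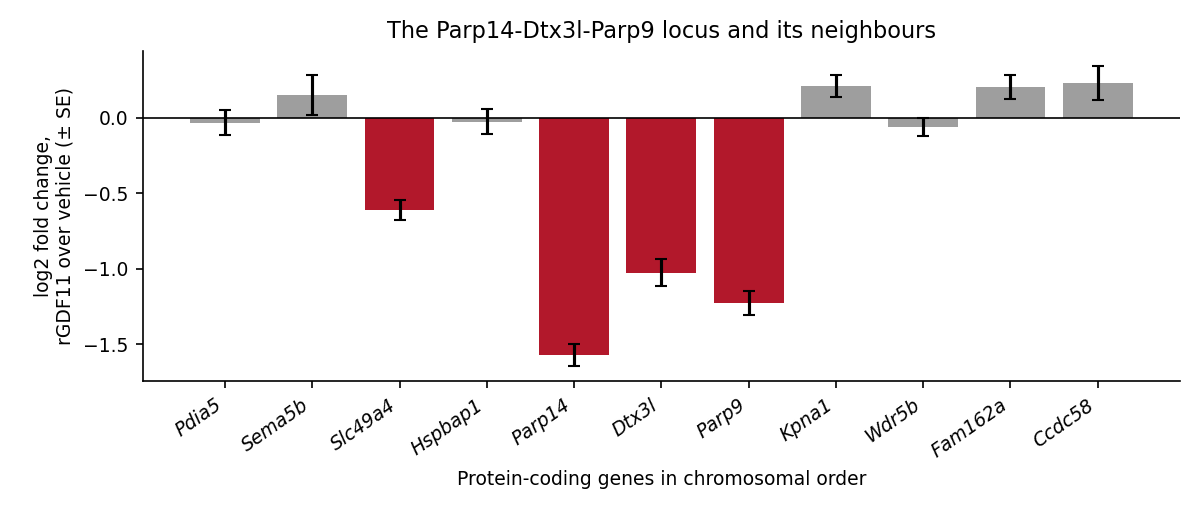
Log2 fold change, rGDF11 over vehicle (vertical axis), of *Parp14*, *Dtx3l*, *Parp9* and their 4 nearest measured protein-coding neighbours on each side, in chromosomal order (horizontal axis). Bars are limma estimates with their SE from 3 arrays per group, red where the adjusted p was under 0.05; the 3 central genes lie between -1.57 and -1.03, and *Slc49a4* is the only red neighbour, at -0.61.

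Most of the other PARP family genes did not pass at an adjusted p under 0.05. Of 12 further genes 11 had a probe set of their own (not *Parp4*), with a median log2 fold change of -0.21. Of the 11, 3 fell in limma, beside 8.64% of all probe sets, 6 at an unadjusted p under 0.05 and 4 in the methods' t-test. None rose (0 higher in limma, 0 at an unadjusted p under 0.05 and 0 in the methods' t-test), beside 7.31%. In 5 all rGDF11 arrays lay below all vehicle arrays, beside 16.5% of probe sets, and in 1 above, beside 16.4%. *Parp3*, which acts in the repair of DNA breaks, read 7.73, 7.59 and 7.67 with rGDF11, against 8.37, 8.48 and 8.60 with vehicle, and was 1.76-fold lower (limma, adjusted p = 0.000364). *Parp11*, another gene for a single-unit transferase, read 6.67, 6.84 and 6.67 with rGDF11, against 7.54, 7.43 and 7.61 with vehicle, and was 1.74-fold lower (limma, adjusted p = 0.000414). In both, the groups were separate, and both estimates were larger than those of *Parp10* and *Uba7*. *Zc3hav1*, the zinc-finger antiviral protein that binds viral RNA, fell by 0.32 on the log2 scale (limma, adjusted p = 0.0132). *Parp6*, *Parp16*, *Parp8* and *Tiparp* had log2 fold changes of -0.30, -0.25, -0.21 and -0.13 and did not pass the test. The tankyrase genes *Tnks* and *Tnks2*, at 0.02 and 0.01, did not pass either, nor did *Parp1* and *Parp2*, which build ADP-ribose chains at damaged DNA, at 0.12 and 0.04. With the spread fitted as a trend on the level, or among bright probe sets only, 5 of the 11 fell.

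**Figure D3:**
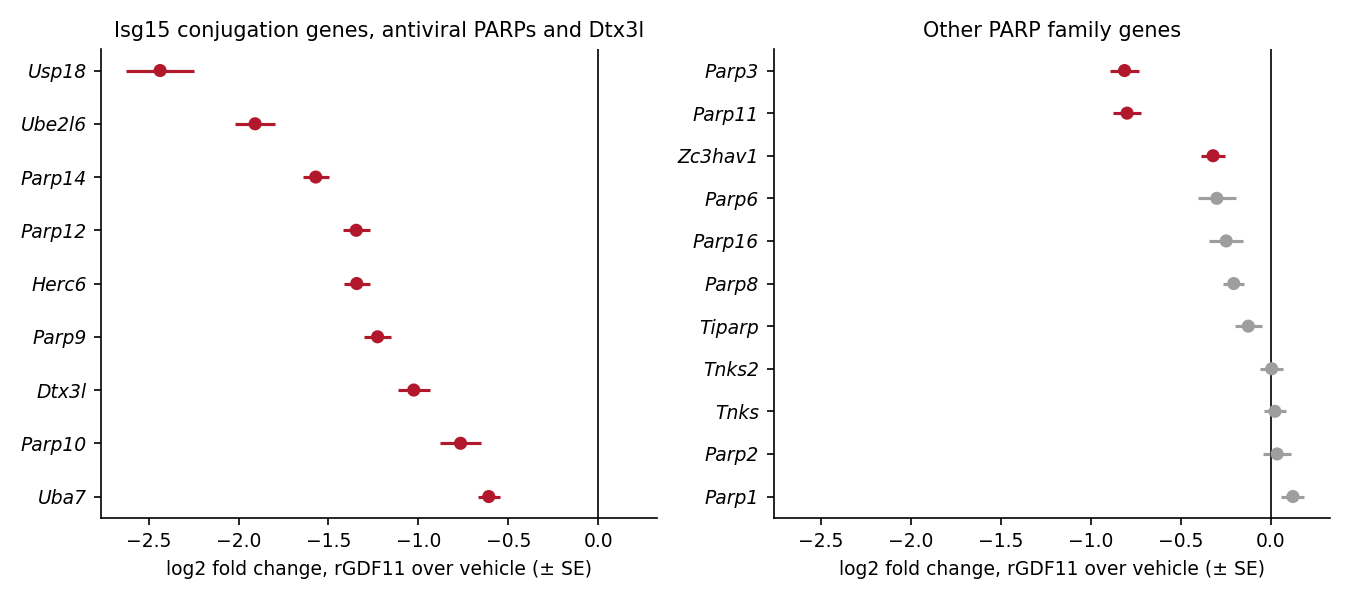
Log2 fold change, rGDF11 over vehicle (horizontal axis, with SE from limma, 3 arrays per group), of the 9 genes (left) and of 11 other PARP family genes (right), 1 row per gene. Red marks an adjusted p under 0.05; all 9 on the left are red, from -2.44 for *Usp18* to -0.61 for *Uba7*, and on the right *Parp3*, *Parp11* and *Zc3hav1* are red.

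Enzymes that remove ADP-ribose were measured through 5 of 7 genes, with a median log2 fold change of 0.11, and none passed in either direction (0 lower and 0 higher in limma, 0 and 1 at an unadjusted p under 0.05, and 0 and 0 in the methods' t-test). Over all probe sets 8.64% were lower and 7.31% higher in limma. *Parg*, which breaks down ADP-ribose chains, was at 0.02 on the log2 scale (adjusted p = 0.893 in limma).

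Counts for the equivalent steps of ubiquitin and its relatives stand beside 8.64% of all probe sets lower and 7.31% higher. Of 13 other ubiquitin-like modifiers 8 were measured, and 1 fell, *Atg12*, the modifier used in autophagy, at -0.66 on the log2 scale (adjusted p = 0.000622 in limma). Of 9 other E1 enzymes 6 were measured, and 1 fell, *Atg7*, which activates Atg12, at -0.37 (limma, adjusted p = 0.0104). *Uba6*, an E1 for ubiquitin, had -0.09 (limma, adjusted p = 0.56). Among 34 other genes matched by an E2 name 1 fell, *Ube2h* (-0.32), and 2 rose, *Ube2g1* (0.28) and *Ube2cbp* (0.41), which by function is a ligase that binds an E2. *Ube2l3*, the E2 closest in name to *Ube2l6*, had -0.03 (limma, adjusted p = 0.794). Among 48 other USP proteases 1 fell, *Usp25* (-0.32), and 7 rose, with *Usp2*, *Usp10* and *Usp31* at 0.66, 0.47 and 0.47. The fall of *Ube2h* or *Usp25*, or both, was lost without rGDF11 array 1, rGDF11 array 3, or any 1 of the vehicle arrays, leaving a count of 0 in its list, and 1 E2 gene rose in place of 2 without any 1 of the arrays other than vehicle array 2. The medians were -0.04 for the modifiers, -0.10 for the E1 enzymes, -0.01 for the E2 enzymes and 0.05 for the proteases.

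Relatives of *Herc6* and *Dtx3l* rose in part. Of 8 HERC and Deltex genes, with a median of 0.09, 3 rose, beside 7.31% of all probe sets. None fell (0 lower in limma, 0 at an unadjusted p under 0.05 and 0 in the methods' t-test), beside 8.64%. *Herc3* read 9.60, 9.59 and 9.63 with rGDF11, against 8.64, 8.80 and 8.70 with vehicle, and was 1.85-fold higher (limma, adjusted p = 9.54e-05). *Dtx4*, a Deltex ubiquitin ligase, read 10.20, 10.24 and 10.14 with rGDF11, against 9.15, 9.31 and 9.38 with vehicle, and was 1.88-fold higher (limma, adjusted p = 0.000176). *Dtx2* rose by 0.39 on the log2 scale (limma, adjusted p = 0.0138). In these genes the rGDF11 arrays read high where those of *Herc6* and *Dtx3l* read low.

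Of the 12 pairs, 5 set one of the 9 genes against a relative picked after the values were known, so their differences are a description. Within arrays, the difference of *Herc6* from *Herc3* changed by -2.23 on the log2 scale, that of *Dtx3l* from *Dtx4* by -1.94 and that of *Ube2l6* from *Ube2l3* by -1.88. Those of *Parp9* from *Parp1* and of *Uba7* from *Uba6* changed by -1.35 and -0.52. In all 5 the groups were separate.

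Other proteins tied to Isg15 moved in both directions. *Trim25*, a ligase that can also attach Isg15, read 9.03, 9.03 and 8.92 with rGDF11, against 9.67, 9.75 and 9.79 with vehicle, and was 1.67-fold lower (limma, adjusted p = 0.000258). The genes for the integrin LFA-1, a receptor for Isg15 outside cells, were split, with *Itgal* higher by 0.49 and *Itgb2* lower, at -0.33, on the log2 scale (limma, adjusted p = 0.0036 for *Itgal* and 0.00666 for *Itgb2*). *Arih1* did not pass (0.15), so 2 of the 4 genes fell and 1 rose, with a median of -0.09. Over all probe sets 8.64% fell and 7.31% rose. Of 7 measured genes whose proteins are described as carrying Isg15, 2 fell, and the median was -0.18. These were *Ddx58*, the viral RNA sensor RIG-I, at -1.88 (limma, adjusted p = 5.28e-05), and *Eif2ak2*, the RNA-activated kinase PKR, at -1.01 (limma, adjusted p = 0.000542).

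**Figure D4:**
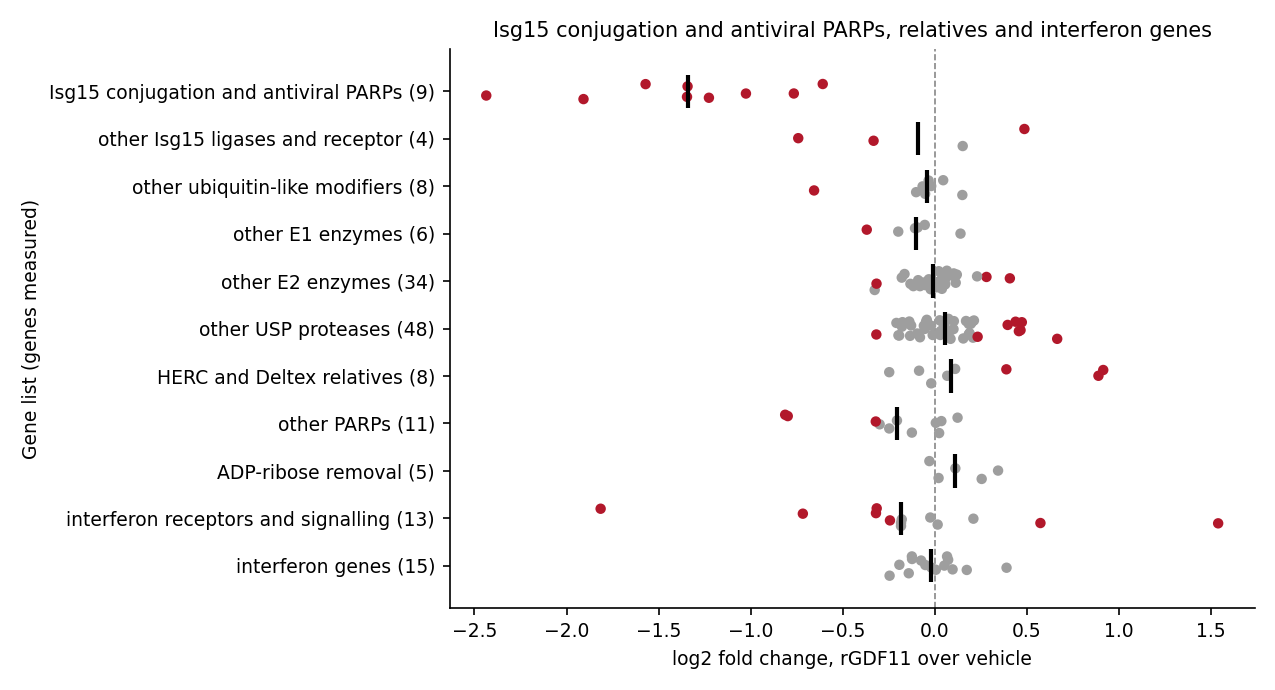
Log2 fold change, rGDF11 over vehicle (horizontal axis), of the genes of 11 lists (rows, with the number measured), with a point for each gene. Red marks an adjusted p under 0.05 in limma (3 arrays a group) and black bars are medians; the 9 genes of the top row have a median of -1.34, and the medians of the lists in the other rows lie between -0.21 and 0.11.

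Of 19 genes for the interferons themselves 15 had a probe set of their own, with a median of -0.02, and none passed in either direction (0 lower and 0 higher in limma, 0 and 1 at an unadjusted p under 0.05, and 0 and 0 in the methods' t-test). Their mean log2 value per array was 4.78 to 4.88 with rGDF11 and 4.77 to 4.96 with vehicle, all below the array medians. Taken singly, 3 of the 15 had a mean above the median of the probe sets tested. Of 13 genes of interferon receptors and their signalling, with a median of -0.18, 5 fell and 2 rose. Beside the counts of both lists, 8.64% of all probe sets fell and 7.31% rose. The count of falls was 3 without rGDF11 array 2, rGDF11 array 3, vehicle array 1 or vehicle array 3. *Stat2*, a transcription factor activated by interferon receptors, read 8.11, 7.90 and 8.06 with rGDF11, against 9.89, 9.77 and 9.85 with vehicle. It was 3.52-fold lower (limma, adjusted p = 1.12e-05), with clearly separate groups, and its partner *Irf9* was 1.64-fold lower (limma, adjusted p = 0.000399). The type I receptor genes *Ifnar1* and *Ifnar2*, both at -0.18, did not pass, while the kinase gene *Tyk2* and the receptor gene *Il10rb*, both at -0.32, did. *Ifnlr1*, the specific chain of the type III receptor, read 6.84, 6.93 and 7.18 with rGDF11, against 5.58, 5.52 and 5.22 with vehicle, and was 2.90-fold higher (limma, adjusted p = 0.000137). *Socs3*, a feedback inhibitor of cytokine signalling, was 1.49-fold higher (limma, adjusted p = 0.00689).

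Outside the 9 genes, the 5 whose pattern over the 6 arrays was nearest to the mean pattern of the 9 were *Oas1b*, *Car5b*, *Rnf213*, *Eng* and *Gapt*. Likeness was the root mean square distance between log2 values centred on each gene's mean, and it was 0.0419, 0.0432, 0.0436, 0.0608 and 0.0627 for these genes in that order. Of the 9 themselves, *Parp12* was nearest at 0.0359 and *Usp18* furthest at 0.564. *Oas1b* belongs to the oligoadenylate synthetases, *Rnf213* encodes a large ubiquitin ligase, *Car5b* a mitochondrial carbonic anhydrase, *Eng* the TGF-β co-receptor endoglin, and *Gapt* a transmembrane adaptor.

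Markers of the cell types that the cultures could hold were read on the same arrays. Their counts stand beside 8.64% of all probe sets lower and 7.31% higher. Macrophage markers were present in both groups, with log2 values of *Csf1r*, the M-CSF receptor, of 12.01 to 12.06 with rGDF11 and 12.06 to 12.18 with vehicle. Of the 8 macrophage markers 5 fell, *Fcgr1*, an Fc receptor gene, by 2.65-fold, *Cd14*, a co-receptor for bacterial lipopolysaccharide, by 2.08-fold, and *Adgre1*, *Cd68* and *Itgam* by 1.42-fold, 1.22-fold and 1.18-fold. *Csf1r* (-0.08), *Lyz2* (-0.02) and *Mertk* (0.06) did not pass, and the mean log2 value of the 8 per array was 10.84 to 10.92 with rGDF11 and 11.32 to 11.35 with vehicle. Of 8 osteoclast markers 6 rose, by up to 3.66-fold (*Acp5*), with array means of 8.36 to 8.47 with rGDF11 and 7.42 to 7.46 with vehicle. Of 8 neutrophil markers 2 rose (6.55 to 6.64 with rGDF11 and 6.29 to 6.32 with vehicle), and of 8 stromal markers 3 rose (5.82 to 5.93 with rGDF11 and 5.56 to 5.74 with vehicle). Of 7 B cell markers 1 fell, *Cd79b* at -1.19 (array means of 4.84 to 4.96 with rGDF11 and 4.92 to 5.03 with vehicle). Plasmacytoid dendritic cells, a major source of interferon, had array means over 6 markers of 4.95 to 5.15 with rGDF11 and 5.12 to 5.17 with vehicle. Of these 0 passed in limma, 1 was lower at an unadjusted p under 0.05 and 0 passed in the methods' t-test. The 7 T and NK cell markers had array means of 4.37 to 4.62 with rGDF11 and 4.39 to 4.55 with vehicle, with 0 passing in limma, 0 at an unadjusted p under 0.05 and 0 in the methods' t-test. The part of these markers in the fall of the 9 genes was not tested.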

How the data were processed

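Total RNA of 6 BMM samples was hybridised, 1 array a sample, to the Affymetrix Mouse Gene 1.0 ST platform. The deposited log2 values are the authors' RMA output. RMA corrects background, normalizes the arrays together and summarises probes into probe sets, so a change shared by most genes would not show and dim probe sets are compressed. The submitters' processing notes name Transcriptome Analysis Console 3.0, and the methods also name Expression Console, with no version. The array number limits the precision; arrays have no read depth. All value columns belonged to a labelled sample.

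Of 35556 probe sets, the platform annotation pairs 21789 with 1 symbol, 1621 with several and 12146 with none. Of the 21789, 21698 were found in the gene table by Entrez identifier, with no symbol changed. The 23410 with a symbol were tested with limma 3.58.1 (R 4.3.3), by lmFit and then eBayes with no trend. Tests were two-sided and p-values were adjusted over all 23410 by Benjamini-Hochberg. For a gene with several probe sets paired with it alone, the brightest was used, and probe sets shared by genes named no gene. Calls used an adjusted p under 0.05 and the methods' threshold, a fold change of 1.5 with p under 0.01. Across probe sets, r was 0.997 to 0.998 within groups and 0.989 to 0.991 between them. The same fit was also run on simulated data, after the fit to the deposited values, and its outcome is not given here.

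The text names all 10 genes, up to 4 called genes per list with the largest change, a few further list members fixed by name, all other PARP genes, the locus neighbours and the 5 nearest genes by likeness. *Arih1* and the markers *Csf1r*, *Lyz2*, *Mertk* and *Itgam* are named beside their lists' counts and were chosen after their values were seen. *Tyk2*, *Il10rb* and *Usp25* are also outside this choice and were named with their values known. The genes and lists were chosen with earlier results of these data known. The lists were other PARPs, ADP-ribose removal, other ubiquitin-like modifiers, other E1 and E2 enzymes, other USP proteases, HERC and Deltex relatives, other Isg15 ligases and receptor, described Isg15 substrates, interferon genes, interferon receptors and signalling, and markers of 7 cell types. Alternatives covered the rows tested, a filter on dim probe sets, normalization, the model of the spread, the t-test of the methods, the replicate block, the probe sets of a gene, the fold change and each array left out.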

Additional observations from a re-analysis of the deposited data

How the results depend on the processing

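Each of the 9 genes kept its direction and its call in all 16 alternatives, and the probe set shared by *Isg15* and *Gm9706* in all that could test it. The log2 fold change ranged from -2.65 to -2.23 for *Usp18*, from -1.48 to -1.21 for the shared probe set and from -0.86 to -0.66 for *Parp10*, whose highest adjusted p was 0.0479, in the methods' t-test. The count of lower genes was 9 of 9 in every alternative, and 10 with the shared probe set, an alternative added after seeing the data, as were the 5 pairs with a relative. At the methods' threshold it was 8 to 9 with each array left out, 8 without the first vehicle array, and 7 at a fold change of 2. The median of the 9 ranged from -1.40 to -1.30. Over all probe sets, 2023 were lower and 1712 higher. With each array left out, 1415 to 1725 were lower and 1129 to 1357 higher, the 1129 without the first rGDF11 array, and in the other alternatives 1597 to 2643 were lower and 1273 to 2276 higher.

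The labels do not say whether the replicate numbers pair the samples. Arrays with the same number deviated together at correlations of 0.0635, 0.335 and -0.000832 across probe sets. Those with unlike numbers had correlations from -0.322 to 0.275. With 3 arrays per group, these correlations cannot settle whether the samples were paired. With the replicate number as a block, 9 of 9 genes were lower with a median of -1.34, and 1943 probe sets were lower and 1676 higher. The block moved 4 list counts by 1, with 1 ADP-ribose removal gene, 1 interferon gene and 6 other USP proteases higher and 4 interferon signalling genes lower.

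Counts in the small lists moved more. Other PARPs that were lower numbered 5 among bright probe sets and with a trend in the spread. Interferon signalling genes that were lower numbered 3 to 8 and higher 1 to 3. Other E2 enzymes that were lower numbered 0 to 2 and higher 1 to 3, and other USP proteases that were lower 0 to 4 and higher 5 to 10. Other E1 enzymes that were lower reached 2, Isg15 substrates that were lower 4, and ligases and receptor genes that were higher 2. ADP-ribose removal genes, ubiquitin-like modifiers and interferon genes that were higher each reached 1, the first and last of these without rGDF11 array 2 among other settings. With 3 arrays per group, no permutation p can fall below 0.1. Dim probe sets, the shared *Isg15* one and most of the interferon genes among them, limit what can be seen of their change.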
